A study of Mus musculus with 4 samples.

Results

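The messages of 10 genes of mitosis were followed between the protrusions and the cell bodies of fibroblasts: Plk1, Aurka, Aurkb, Cdc20, Ccnb1, Bub1, Bub1b, Ttk, Nusap1 and Itgb3bp. Every probe set whose only gene symbol in the platform annotation was one of these names was taken, which gave 22 probe sets of 9 genes, out of 34945 probe sets of 18193 genes with 1 symbol on the array. No probe set carried the name Ccnb1, so that gene was not analysed here. The genes were chosen on the pseudopodia and cell body values themselves, because their messages lay on opposite sides of the comparison. Their differences are therefore given as a description, with no test, and the direction of any of them is no independent result.

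RNA came from 2 samples of pseudopodia and 2 samples of cell bodies of NIH/3T3 cells, a mouse embryonic fibroblast line, with 1 Affymetrix Mouse430_2 array for each sample. Both compartments came from cells kept without serum on a filter with pores whose lower face alone carried fibronectin, where protrusions grew for 1 h, and no sample without fibronectin was part of the design. Cells were fixed with formaldehyde, the unwanted side was wiped away, and RNA was recovered after the crosslinks had been reversed. The samples of a compartment are called independent in the design text, but no label says that they were separate cultures, so the spread between them may be technical.

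Mitosis runs on a small set of kinases and on the destruction of proteins at set times. Polo-like kinase 1 and the Aurora kinases drive entry, build the spindle and correct the attachment of chromosomes to it. The spindle checkpoint, built on Ttk, Bub1 and BubR1 (the product of Bub1b) at kinetochores, holds back Cdc20, the activator of the anaphase-promoting complex, until all chromosomes are attached. Many of these genes are transcribed together late in the cell cycle through CCAAT boxes and a cell cycle homology region in their promoters.

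The promoters of 4 of these genes are shown because they stand for both directions of the comparison: Plk1 and Cdc20, with lower values in pseudopodia, and Bub1 and Itgb3bp, with higher values. Each is the RefSeq window on GRCm38.p6 from 250 bases before to 50 bases after the annotated start, 5′ to 3′ on the gene's strand. Capitals mark the letters TTTGAA, a form of the cell cycle homology region, and CCAAT, each read on both strands. The windows lie at chr7:122159185-122159484 on the plus strand for Plk1, and on the minus strand at chr4:118437294-118437593 for Cdc20, chr2:127831810-127832109 for Bub1 and chr4:99829109-99829408 for Itgb3bp.
Plk1: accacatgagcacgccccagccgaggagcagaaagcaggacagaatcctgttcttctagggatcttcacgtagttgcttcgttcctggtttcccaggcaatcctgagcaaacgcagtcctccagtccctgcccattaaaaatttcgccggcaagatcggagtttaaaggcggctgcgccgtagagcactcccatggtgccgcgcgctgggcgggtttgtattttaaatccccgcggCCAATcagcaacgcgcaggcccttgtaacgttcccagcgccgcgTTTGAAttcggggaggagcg
Cdc20: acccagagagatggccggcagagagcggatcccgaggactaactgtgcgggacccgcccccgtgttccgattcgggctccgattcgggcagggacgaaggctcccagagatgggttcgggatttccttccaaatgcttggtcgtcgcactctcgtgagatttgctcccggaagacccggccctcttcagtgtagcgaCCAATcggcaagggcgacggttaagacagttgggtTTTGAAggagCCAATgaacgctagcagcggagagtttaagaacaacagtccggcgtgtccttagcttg
Bub1: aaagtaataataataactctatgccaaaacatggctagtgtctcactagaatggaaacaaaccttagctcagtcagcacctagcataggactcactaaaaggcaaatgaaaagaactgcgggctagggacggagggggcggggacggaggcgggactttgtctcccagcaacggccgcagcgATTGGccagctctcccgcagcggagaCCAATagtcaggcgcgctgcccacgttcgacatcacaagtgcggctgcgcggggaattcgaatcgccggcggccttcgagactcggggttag
Itgb3bp: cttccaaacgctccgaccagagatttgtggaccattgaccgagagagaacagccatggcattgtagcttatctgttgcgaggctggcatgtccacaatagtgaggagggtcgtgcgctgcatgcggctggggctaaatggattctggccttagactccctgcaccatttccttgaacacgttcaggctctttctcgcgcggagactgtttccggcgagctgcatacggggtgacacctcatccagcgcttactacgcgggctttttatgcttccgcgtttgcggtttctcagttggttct

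Windows were matched by symbol for 9 of the 10 genes, Ccnb1 included. TTTGAA occurred in 5 of these 9 windows (55.6%), against 17.9% of all 32851 RefSeq windows of the same length. CCAAT occurred in 7 of 9 (77.8%), against 37.4% of all. Both motifs stood together in 5 of 9 windows, against 7.0% of all. They were in the windows of Plk1, Aurka, Cdc20 and Bub1b, whose values were lower in pseudopodia, and in that of Ttk, whose brightest probe set was higher. Bub1 and Ccnb1 held CCAAT without TTTGAA, and the windows of Nusap1 and Itgb3bp held neither run of letters. In Plk1 the CCAAT began 14 bases before the start, and in Cdc20 the TTTGAA began 18 bases before it. In Plk1, Aurka, Bub1b and Ttk the TTTGAA lay after the annotated start, from base 31, 33, 41 and 8. These are matches of letters, and nothing about the binding of a factor was measured.

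Each deposited value is the intensity of a probe set, not yet on a log scale, with a floor of 20 that 30.5% to 34.8% of non-control probe sets share on an array. A value at the floor is only an upper bound. Differences are on the scale of log2(intensity + 1), pseudopodia minus cell bodies, which understates the change of dim probe sets. Levels of different genes are not set against each other, since each probe set has its own response.

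The entry and spindle kinases chosen here, Plk1, Aurka and Aurkb, were lower in pseudopodia. Plk1, the polo-like kinase of centrosomes, kinetochores and the midbody, had 1 probe set (1448191_at). It read 973 and 1076 on the pseudopodia arrays, against 1732 and 1893 on the cell body arrays. The mean intensity was 1024 ± 72.5 in pseudopodia and 1812 ± 114 in cell bodies (SD, n = 2 each), a log2 difference of -0.82 and 1.77-fold lower in pseudopodia. Both pseudopodia arrays lay below both cell body arrays, and the difference over the pairs of 1 array from each compartment ran from -0.96 to -0.69. In an extract of many cells, less of a message in each protrusion and fewer protrusions that hold it cannot be told apart.

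Aurka, the Aurora kinase of centrosomes and spindle poles, read 1059 and 1195 in pseudopodia, against 1743 and 1996 in cell bodies, at its brightest probe set (1424511_at). The log2 difference was -0.73, or 1.66-fold lower in pseudopodia, with no overlap of the compartments. Its second probe set (1440129_at) was at the floor on 3 arrays and at 20.1 on cell body replicate 2, so it carried no level to compare. Aurkb, the Aurora kinase of the chromosomal passenger complex, which releases wrongly attached microtubules, read 919 and 957 in pseudopodia, against 1125 and 1555 in cell bodies (1424128_x_at). Its second probe set (1451246_s_at) read 669 and 647 in pseudopodia, against 816 and 1045 in cell bodies. The log2 differences were -0.50 and -0.49. The compartments did not overlap at either probe set, but the cell body arrays stood apart from each other by 0.47 and 0.36 on the log2 scale, nearly the size of the difference at the brighter one. Without cell body replicate 2 the difference of Aurkb was -0.26, and without cell body replicate 1 it was -0.73. Both names end in letters that mark probes that may match several transcripts, and both were read on the same arrays.

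Cdc20, which carries substrates to the anaphase-promoting complex, was lower in pseudopodia at all 3 of its probe sets. The brightest (1439377_x_at) read 4771 and 4759 in pseudopodia, against 6979 and 7139 in cell bodies. The second (1416664_at) read 2041 and 1937 in pseudopodia, against 3769 and 3589 in cell bodies. The dimmest (1439394_x_at) read 768 and 677 in pseudopodia, against 1444 and 1469 in cell bodies. Their log2 differences were -0.57, -0.89 and -1.01, and at each of them both pseudopodia arrays lay below both cell body arrays. The size thus depended on the probe set, from 1.48-fold to 2.02-fold lower in pseudopodia.

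Among the checkpoint genes the paralogues Bub1 and Bub1b lay on opposite sides. Bub1b, whose product BubR1 is part of the complex that inhibits Cdc20, read 1287 and 1308 in pseudopodia, against 1680 and 1737 in cell bodies (1447363_s_at). A second probe set (1416961_at) read 990 and 1002 in pseudopodia, against 1403 and 1401 in cell bodies. The log2 differences were -0.40 and -0.49, while the arrays of a compartment were at most 0.048 apart on the log2 scale at either. A further probe set (1447362_at) was at the floor on 3 arrays and read 23.0 on pseudopodia replicate 2.

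Bub1, the checkpoint kinase that brings BubR1 and shugoshin to centromeres, was higher in pseudopodia. It read 457 and 460 in pseudopodia, against 250 and 276 in cell bodies (1424046_at), a log2 difference of 0.80 and a fold of 1.74 over cell bodies. The compartments did not overlap. The other probe set (1438571_at) was dim and lay under the filter on low values: it read 43.4 and 37.8 in pseudopodia, while 1 cell body array was at the floor and the other read 20.02. Its pseudopodia arrays too lay above its cell body arrays.

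Ttk, the kinase also called Mps1 that starts the checkpoint at kinetochores, was dim, and its 2 probe sets went different ways. The one that stands for the gene (1449171_at) read 81.4 and 88.9 in pseudopodia, against 47.2 and 37.5 in cell bodies, with a log2 difference of 1.00 and no overlap. The other (1442594_at) read 30.6 and 72.9 in pseudopodia, against 53.2 and 61.4 in cell bodies. There the pseudopodia arrays lay on either side of both cell body arrays, and the log2 difference was -0.27. With pseudopodia replicate 1 left out, the second probe set became the brighter one and the value for Ttk was 0.34. With the mean of both probe sets it was 0.36. The direction of Ttk therefore rests on 1 of 2 dim probe sets.

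Nusap1, which binds and bundles spindle microtubules near chromosomes, read 751 and 825 in pseudopodia, against 412 and 385 in cell bodies (1416309_at). The mean intensity was 788 ± 52.8 in pseudopodia and 398 ± 19.3 in cell bodies (SD, n = 2 each), with a log2 difference of 0.98, or 1.97-fold higher in pseudopodia. The second probe set (1416310_at) lay under the filter on low values and had the other sign. It read 25.5 and 25.8 in pseudopodia, against 33.1 and 39.9 in cell bodies, a log2 difference of -0.49. These values are dim, but 0 arrays were at the floor, and both pseudopodia arrays lay below both cell body arrays.

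Itgb3bp encodes the centromere protein CENP-R, first known as a partner of the integrin beta-3 tail, and had the largest difference of the 9 genes. Its brightest probe set (1456097_a_at) read 243 and 211 in pseudopodia, against 74.9 and 46.4 in cell bodies. The mean intensity was 227 ± 22.4 in pseudopodia and 60.7 ± 20.1 in cell bodies (SD, n = 2 each), a log2 difference of 1.92 and a fold of 3.79 over cell bodies. The compartments did not overlap, and the difference over pairs of arrays ran from 1.48 to 2.36, since the cell body arrays were 0.68 apart on the log2 scale. The gene had 4 other probe sets, all under the filter. Of these, 1449953_at read 34.7 and 42.0 in pseudopodia, against 57.6 and 29.1 in cell bodies, which overlapped. The remaining 3 were at the floor on 3 or 4 arrays and read at most 22.8. The difference of Itgb3bp thus rests on 1 of its 5 probe sets, one whose name marks probes that may match several transcripts.

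**Figure D1:**
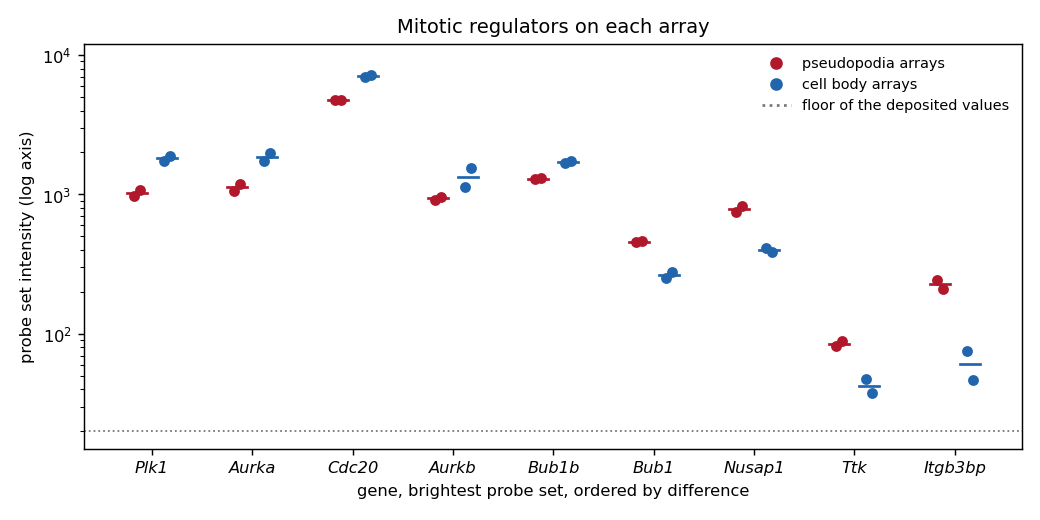
Intensity (log axis) of the brightest probe set of each of the 9 genes, with the 2 pseudopodia arrays (red, left) and the 2 cell body arrays (blue, right) as points, their means as short lines and the floor of 20 dotted. The red points lie below the blue ones for Plk1, Aurka, Cdc20, Aurkb and Bub1b and above them for Bub1, Nusap1, Ttk and Itgb3bp.

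Set in order, the 9 differences ran from -0.82 for Plk1 to 1.92 for Itgb3bp, and none lay between -0.40 and 0.80. Over pairs of arrays the range of Plk1 overlapped that of its neighbour Aurka, which ran from -0.91 to -0.54. The ranges of Cdc20 and Bub1b, at -0.58 to -0.55 and -0.43 to -0.36, did not meet, although both fell inside that of Aurkb, at -0.76 to -0.23. Bub1, at 0.73 to 0.88, overlapped Nusap1, at 0.86 to 1.10, and both overlapped Ttk, at 0.77 to 1.22. Itgb3bp began at 1.48, above the highest value of Ttk. Of the 11320 tested genes, 8.21% had a lower difference than Plk1 and 94.3% a lower one than Bub1. For Itgb3bp that share was 99.9%.

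**Figure D2:**
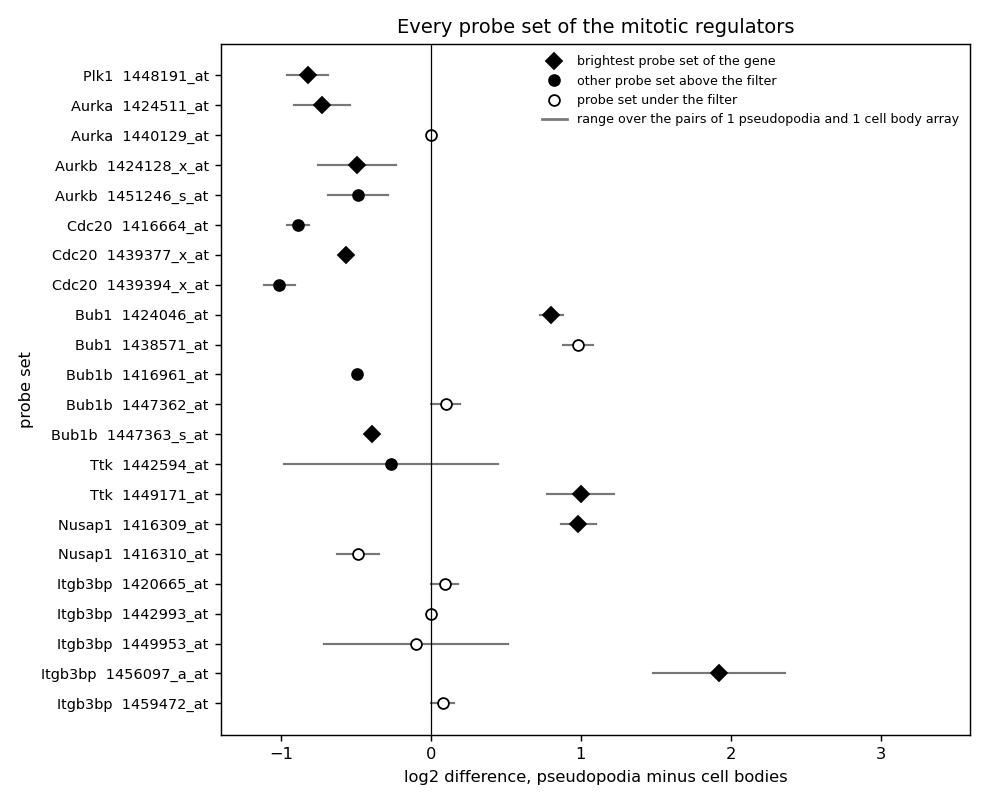
Log2 difference, pseudopodia minus cell bodies, of all 22 probe sets. Diamonds mark the brightest probe set of a gene, filled circles others above the filter on low values, open circles those under it, and lines the range over the pairs of 1 array from each compartment. The 3 probe sets of Cdc20 all lie below 0, while the other probe sets of Ttk and Nusap1 lie on the opposite side from the diamond.

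At these brightest probe sets, both pseudopodia arrays lay above both cell body arrays for 4 of the 9 genes, and below them for 5. Over all 11320 tested genes the same held for 29.5% and 31.4%. In the limma fit across all genes with Benjamini-Hochberg adjustment, 4 of the 9 were called higher in pseudopodia (Bub1, Nusap1, Ttk and Itgb3bp), against a background of 5.92% of tested genes. Plk1, Aurka and Cdc20 were called lower, against a background of 8.69%, and Aurkb and Bub1b did not pass. Nothing is read from these counts, since the genes were chosen on this same contrast.

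For the Actb control probe sets, the 3′ signal over the 5′ signal was, as a log2 ratio, 0.56 and 0.65 on the pseudopodia arrays, against 0.37 and 0.36 on the cell body arrays. The summed intensity of 11 fibroblast markers was 56942 and 57027 in pseudopodia, against 81189 and 73695 in cell bodies, with Thy1 and Fap at the floor on all 4 arrays. Of 8 epithelial markers 5 were above the filter, with sums of 969 and 1079 in pseudopodia against 1258 and 1150 in cell bodies. For 7 haematopoietic markers the sums were 308 and 265 in pseudopodia, against 287 and 277 in cell bodies. Of these, 3 were above the filter. The brightest, Laptm5, read 119 and 72.4 in pseudopodia, against 82.8 and 72.6 in cell bodies, while Ptprc read at most 22.8. The part of these values in the differences was not tested. Every array had its own fluidics module in the array records, so the module could not be fitted as a batch. The replicate number was fitted as a block among the alternatives.

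By the pattern over the 4 arrays (the distance between log2 deviations from each gene's own mean), the tested genes most like Plk1 were Pla1a, Cdan1 and Cmtr1, at distances of 0.048 to 0.066. Their log2 differences were -0.80, -0.79 and -0.84. Those most like Itgb3bp were Crbn, Zfp386 and Smim10l1, at 0.17 to 0.25, with differences of 1.76, 1.76 and 1.77. Crbn, for example, read 481 and 406 in pseudopodia, against 169 and 99.6 in cell bodies, and shares with Itgb3bp the lower value on cell body replicate 2. With 4 arrays, likeness says only that the values run in parallel.

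The other genes of mitosis were then read from the same fit, over 7 lists that leave out the 10 genes above. Where other probe sets of these genes are mentioned, they are those above the filter on low values. Of 150 genes listed, 143 were tested. In pseudopodia 14 rose (9.79%, against 5.92% of all tested genes) and 6 fell (4.20%, against 8.69%). Their median log2 difference was 0.030, against -0.0020 over all tested genes. Of the 143, 76 lay above 0 and 67 below, against 5628 and 5692 of all 11320 tested genes. With quantile normalization 16 rose and 3 fell, and with median centring 12 and 10. These calls need all 4 arrays: with any 1 array left out, limma called 0 of the 143, while 24.5% to 30.8% of them were under 0.05 before adjustment, against 24.7% to 25.4% of all tested genes. With the full set these shares were 33.6% of the 143 and 31.4% of all tested genes, so the share before adjustment was near that of all genes. With no filter on low values it also called 0 of 147, with 40.1% of them under 0.05 before adjustment, against 21.1% of all genes. Those 18193 genes took in the dim ones that the filter leaves out, while 143 of the 147 lay above it. The unfiltered shares thus compare unlike sets, and nothing is read from them. Bora, Ccnf and Fzr1 were no longer called with quantile normalization, nor Cdc27, Cenpb and Stag2 with median centring.

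Of 11 Aurora partners and passenger proteins 0 passed the test, where 5.92% of all tested genes rose and 8.69% fell. Of the 11, 9 lay below 0, against 5692 of all 11320 tested genes, and the median was -0.30. Incenp, the scaffold that binds and activates Aurora B, was picked after the values were seen as the lowest of that list. It had a log2 difference of -0.59 (SE 0.15, limma adjusted p = 0.0679), and the brightest, the survivin gene Birc5, of -0.09 (SE 0.13). Of 20 mitotic entry genes 2 fell (10.0%, against 8.69% of all tested genes) and 0 rose (against 5.92%), with a median of -0.22. The share that fell is near that of all genes. Bora, whose product helps Aurora A to activate Plk1, fell by 1.39 (SE 0.31, limma adjusted p = 0.0483), with 50.2 and 69.5 in pseudopodia, against 120 and 203 in cell bodies. Its other probe set read 57.3 and 32.9 in pseudopodia, against 64.9 and 57.4 in cell bodies, with a difference of -0.48. Pseudopodia replicate 1 there was level with cell body replicate 2. Ccnf, which encodes cyclin F of a ubiquitin ligase, fell by 0.96 (SE 0.21, limma adjusted p = 0.0465). Cks1b, the brightest of that list and a subunit of cyclin-dependent kinases, had a difference of -0.10 (SE 0.13). Cdk1 and Ccnb2, picked after their values were seen as the kinase of cyclin B and its other cyclin, had differences of -0.52 (SE 0.13, limma adjusted p = 0.0649) and -0.19 (SE 0.17).

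The spindle checkpoint as a list did not share a direction. Of 11 tested genes 0 passed, where 5.92% of all tested genes rose and 8.69% fell. Of the 11, 6 lay above 0 and 5 below, against 5628 and 5692 of all 11320, and the median was 0.11. Bub3, the partner of both Bub1 and BubR1, read 3449 and 3374 in pseudopodia, against 3983 and 4090 in cell bodies, with a log2 difference of -0.24 (SE 0.13, limma adjusted p = 0.269). The difference of Bub3 depended on the probe set. It was -0.55 with the mean of its probe sets and -0.12 without probe sets that may match several transcripts. At the brightest probe sets the list ran from -0.24 to 0.31.

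Of 21 genes of the anaphase-promoting complex and its regulators, 1 rose (4.76%, against 5.92% of all tested genes) and 1 fell (4.76%, against 8.69%), with a median of -0.02. Fzr1, the activator that takes over from Cdc20 late in mitosis, fell by 0.63 (SE 0.13, limma adjusted p = 0.0410), with 569 and 564 in pseudopodia, against 843 and 909 in cell bodies. Cdc27, a core subunit that binds these activators, rose by 0.57 (SE 0.13, limma adjusted p = 0.0481), with 581 and 599 in pseudopodia, against 399 and 396 in cell bodies. At its 2 remaining probe sets the differences were 1.63 and 0.86. Anapc5, the brightest, had a difference of 0.0071 (SE 0.13).

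Centromere and kinetochore genes, the partners of Itgb3bp, held 6 of the 14 that rose. Of 32 tested, 6 rose (18.8%, against 5.92% of all tested genes) and 0 fell (against 8.69%). Of the 32, 24 lay above 0, against 5628 of all 11320 tested genes, and the median was 0.22. CENP-R belongs to a complex of the inner kinetochore with CENP-O, CENP-P, CENP-Q and CENP-U. Cenpq read 744 and 838 in pseudopodia, against 291 and 416 in cell bodies, and rose by 1.18 (SE 0.21, limma adjusted p = 0.0303). Cenpp rose by 1.05 (SE 0.18) and Cenpu by 0.83 (SE 0.14). Cenpo, picked after its value was seen to complete the complex, had a difference of 0.33 (SE 0.14, limma adjusted p = 0.182).

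The largest rise of the list was that of Cenpk, a neighbouring inner kinetochore protein, which read 228 and 246 in pseudopodia, against 85.7 and 75.9 in cell bodies, and rose by 1.54 (SE 0.14, limma adjusted p = 0.0166). The Ndc80 complex subunit Spc25 rose by 1.05 (SE 0.18), but its other probe set had a difference of 0.14. Cenpb, which binds a short motif of centromeric satellites, rose by 0.65 (SE 0.13, limma adjusted p = 0.0397). The brightest, the centromeric histone Cenpa, had a difference of -0.19 (SE 0.13, limma adjusted p = 0.395). It fell by 0.87 with the mean of its probe sets and by 1.56 without probe sets that may match several transcripts, and passed the test in both.

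Cohesin and condensin genes, which hold sister chromatids together and compact them, held 5 more. Of 20 tested, 5 rose (25.0%, against 5.92% of all tested genes) and 0 fell (against 8.69%). Of the 20, 14 lay above 0, against 5628 of all 11320 tested genes, and the median was 0.37. The condensin subunit Smc4 read 850 and 992 in pseudopodia, against 408 and 404 in cell bodies, and rose by 1.17 (SE 0.14, limma adjusted p = 0.0176). The condensin subunit Ncapg rose by 1.10 (SE 0.16) and the cohesin acetyltransferase Esco1 by 0.90 (SE 0.13). The other probe set of Ncapg had a difference of 1.16, but its compartments overlapped. It read 105 and 285 in pseudopodia, against 54.0 and 110 in cell bodies. The cohesin subunits Stag1 and Stag2 rose by 0.87 (SE 0.19) and 0.63 (SE 0.14), and the other 3 probe sets of Stag1 had differences of 0.91 to 0.95. Ncaph2, the brightest, had a difference of -0.24 (SE 0.13). With the mean of its probe sets it fell by 0.86 and passed the test, so the count of 0 that fell holds for the brightest probe sets.

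Of 28 spindle and midzone genes tested, 2 rose (7.14%, against 5.92% of all tested genes) and 3 fell (10.7%, against 8.69%), with a median of -0.09. Both shares are near those of all genes. Numa1, which anchors microtubules at spindle poles, fell by 1.27 (SE 0.13, limma adjusted p = 0.0166), with 628 and 630 in pseudopodia, against 1507 and 1529 in cell bodies. The minus-end kinesin Kifc1 fell by 0.91 (SE 0.15) and the kinesin Kif18b by 0.76 (SE 0.16). Haus1 and Haus2, subunits of the augmin complex that branches spindle microtubules, rose by 0.95 (SE 0.18) and 0.92 (SE 0.14), and the other 3 probe sets of Haus2 had differences of 0.46 to 0.95. Kif22, the brightest, had a difference of -0.32 (SE 0.13). It fell by 0.63 with the mean of its probe sets and by 0.86 without probe sets that may match several transcripts, and passed the test in both. Among 30 genes of DNA replication and the G1/S step, set beside these, 2 rose (6.67%, against 5.92% of all tested genes). Of the 30, 0 fell (against 8.69%), and the median was -0.07. Those that rose were Ccne2, by 1.13 (SE 0.13), and Pola1, by 0.72 (SE 0.13). The brightest of that list, the replication clamp Pcna, had a difference of -0.20 (SE 0.16).

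**Figure D3:**
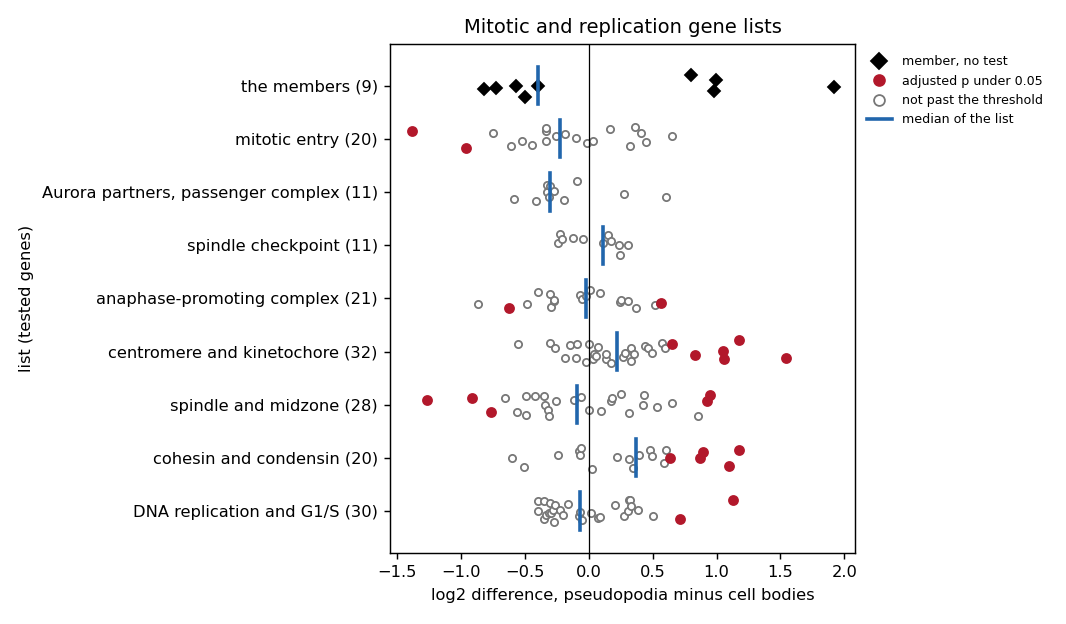
Log2 difference, pseudopodia minus cell bodies, of each tested gene, by list, with the number tested in brackets. Black diamonds are the 9 genes described above, shown without a test, red points passed an adjusted p of 0.05, open points did not, and blue lines are medians. The red points of the kinetochore and cohesin lists all lie above 0, and those of mitotic entry below it.

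Under the other processing choices tried, none of the 9 genes changed sign where it was tested. That was largely settled in advance, since the genes were chosen on this contrast and their compartments did not overlap at the brightest probe sets. With 1 array left out, a sign could change only if another probe set was taken. Aurkb and Itgb3bp were not tested without probe sets that may match several transcripts, and Ttk was not tested with the stricter filter. The differences of Plk1 ran from -0.90 to -0.72, those of Cdc20 from -0.89 to -0.46 and those of Itgb3bp from 1.58 to 2.26. Aurkb ran widest for its size, from -0.73 to -0.26. Ttk ran from 0.34 to 1.16, the low values coming from settings that took in its second probe set.

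**Figure D4:**
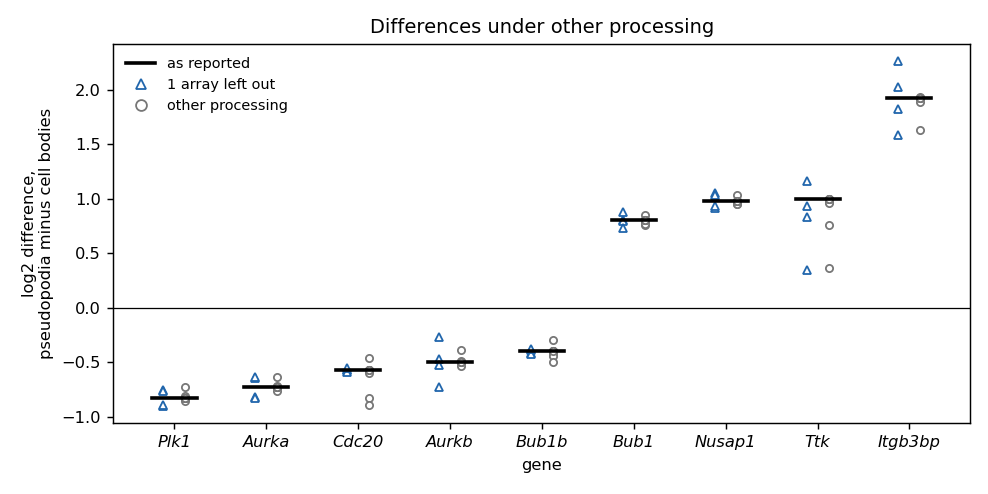
Log2 difference of each of the 9 genes as reported (black line), with 1 array left out (triangles) and under the other processing choices (circles). The points stay on the side of 0 of the black line for the 9 genes, and those of Ttk reach down to 0.34.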

How the data were processed

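The authors deposited 1 intensity per probe set and array, on a linear scale with a floor of 20. The sources used here do not state how probes were summarised and arrays scaled, or with which software. Gene names are those of the platform annotation. The 64 control probe sets were left out. Computed here were log2(intensity + 1), the brightest 1-symbol probe set for each gene, and a filter at the median of the other probe sets (5.42 on the log2 scale, or an intensity of 42.0). Groups were compared with limma 3.58.1 under R 4.3.3, by lmFit and eBayes without covariates. The test was two-sided, with p-values adjusted by Benjamini-Hochberg over all 11320 tested genes and a threshold of 0.05. The code was tested on simulated data. Precision is limited by having 2 arrays for each compartment.

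The 10 genes, the lists and the tests were chosen with earlier results of these data known. Named are all probe sets of the 10 genes, each called gene and the brightest gene of each mitotic list, and the 3 genes most like the members with the largest and smallest difference. Others are marked as picked after their values were seen. Alternatives changed the pseudocount, the filter, the scaling, the choice of probe set, the replicate block and the arrays left out.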

Additional observations from a re-analysis of the deposited data

How the results depend on the processing

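The 2 arrays per compartment and the floor limit these values. The filters, probe sets tested singly and the replicate block leave a gene's difference as it is. Of 79 differences of the 9 genes under the other alternatives, 67 stayed within the spread between replicates, 12 moved further and 0 changed sign. Leaving out 1 array cannot move a difference beyond that spread, or change its sign here, unless another probe set is taken. The mean of probe sets changes nothing for a gene with 1 probe set above the filter. Many of the 67 were thus fixed by construction, and they are no measure of stability. The number of genes below 0 was 5 under each alternative, except 4 of 7 when probe sets that may match several transcripts were left out, where Aurkb and Itgb3bp were not tested. Ttk was not tested with the stricter filter. Across all genes, 670 rose and 984 fell, of 11320 tested. The counts with probe sets tested singly are of 19385 probe sets, not of genes, so they cannot be set against these directly. Without a filter 0 rose and 2 fell, with probe sets tested singly 1055 and 1602, and with any 1 array left out 0 and 0, where the lone array of a compartment is assumed to vary like the others. Among the other mitotic genes, 14 rose and 6 fell. Without a filter 0 rose and 0 fell, with a stricter filter (the 60th percentile) 22 and 13, and with any 1 array left out 0 and 0. Without probe sets that may match several transcripts 9 rose and 9 fell, and with quantile normalization 16 and 3. The number that fell was 10 with a pseudocount of 20, 10 with median centring (12 rose) and 12 with the mean of a gene's probe sets. With probe sets tested singly it was 13, counted over 265 probe sets and not over genes. Calls were lost for Bora, Ccnf, Fzr1, Cdc27, Stag1 and Stag2 with probe sets tested singly, for Ccnf, Cenpp, Spc25 and Ncapg with the mean of probe sets, and for Cdc27, Spc25 and Stag2 without probe sets that may match several transcripts. Among the brightest genes of the lists, calls were gained for Cenpa, Kif22 and Ncaph2, which all fell with the mean of probe sets. Cenpa and Kif22 also gained them without probe sets that may match several transcripts. Other genes of the lists that gained a call are not named here. The cause of these shifts was not tested. The samples share replicate numbers, but nothing says that a number marks a shared culture. Same-numbered samples deviated together over genes (r = 0.34), and with the replicate block 988 genes rose and 1214 fell, of them 18 and 9 other mitotic genes.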
